A study of Mus musculus with 12 samples.

Results

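Peak lists of the transcription factor MAX were compared between RAW264.7 cells kept with a BET inhibitor and untreated RAW264.7 cells. RAW264.7 is an established mouse monocyte and macrophage line that can be driven towards osteoclasts, the bone-resorbing cells. The members are every row of the MAX list of untreated cells, 8839 peaks, and every row of the MAX list of cells given I-BET at 500 nM for 4 h, 36785 peaks. Together these are 45624 of the 63578 peaks in the 8 MYC and MAX lists of the study. The other MAX lists, used here only for comparison, come from cells given the cytokine RANKL at 50 ng/ml for 4 h (10889 peaks) or RANKL with I-BET at the same doses and time (6307 peaks). All groups are the same line without a transgene or deletion named in the labels, and each group has 1 MAX library. No difference below could be set against replicates or tested, and read depth is unknown from these files. Intervals of shares are 95% intervals by the exact Clopper-Pearson method. The interval of the median width ratio is a 95% interval taken from the ordered ratios. Both kinds treat peaks as independent and account for counting error alone.

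MAX is a basic helix-loop-helix leucine zipper protein that binds the E-box, the palindrome CACGTG, as a pair with itself or with MYC, or with repressors such as MNT, MGA and the MXD proteins. MYC pairs are known to activate genes for ribosome building, metabolism and growth, and the MXD, MNT and MGA pairs are known to repress through the same sites. BET proteins hold on to acetylated histones through bromodomains, and I-BET compounds occupy these pockets. In macrophages BET proteins are known for their part in inflammatory gene activation.

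A peak was called kept when it shared at least 1 bp with a peak of the other list, added when it was an I-BET peak without an untreated match, and absent when it was an untreated peak without an I-BET match. A peak was at a gene start when its edge lay within 1 kb of an annotated transcription start (17492 genes), or of either end for the 4395 protein-coding genes without a start in the table. Ranks follow the score in the deposited lists, which is the authors' own value for a peak and was used only within a list. The "top" I-BET peaks are the 8839 with the highest scores, as many as the untreated list holds. The last top peak had a score of 382.3 and a width of 500 bp, and the next one had 382.0 and 1011 bp.

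The sequences upstream of 6 genes are examples of promoters with kept and added peaks (RefSeq, GRCm38.p6, the mm10 assembly). Each is the 250 bases before the transcription start, 5′ to 3′ on the gene's own strand, with CACGTG in capitals. They were taken in rank order from promoter windows after the values were seen. Atp5l, Exosc5, Nceh1 and Rab3gap2 were picked among windows with CACGTG, and Pofut2 and Ddb1 among windows without it. Only 17.4% of windows with a kept top peak and 7.89% of those with a top added peak held CACGTG. The examples therefore do not show how often it occurs. Atp5l (ATP synthase subunit g, chr9:44920743-44920992, minus strand) and Exosc5 (an RNA exosome subunit, chr7:25658903-25659152, plus strand) had kept peaks, at untreated ranks 12 and 18.
Atp5l: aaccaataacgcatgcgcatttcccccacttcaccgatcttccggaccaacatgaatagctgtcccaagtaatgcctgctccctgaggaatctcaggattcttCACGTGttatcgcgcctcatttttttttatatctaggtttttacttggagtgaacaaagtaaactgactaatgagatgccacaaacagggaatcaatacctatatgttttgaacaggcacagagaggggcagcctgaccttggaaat
Exosc5: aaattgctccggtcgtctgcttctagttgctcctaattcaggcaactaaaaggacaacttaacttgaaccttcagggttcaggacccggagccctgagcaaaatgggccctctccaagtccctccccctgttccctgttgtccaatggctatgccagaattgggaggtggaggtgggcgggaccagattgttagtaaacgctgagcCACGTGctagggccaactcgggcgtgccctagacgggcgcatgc
Nceh1 (a cholesterol ester hydrolase, chr3:27182754-27183003, plus strand) and Rab3gap2 (a regulator of Rab GTPases, chr1:185203918-185204167, plus strand) had added peaks, at I-BET ranks 1275 and 1913, and hold the E-box.
Nceh1: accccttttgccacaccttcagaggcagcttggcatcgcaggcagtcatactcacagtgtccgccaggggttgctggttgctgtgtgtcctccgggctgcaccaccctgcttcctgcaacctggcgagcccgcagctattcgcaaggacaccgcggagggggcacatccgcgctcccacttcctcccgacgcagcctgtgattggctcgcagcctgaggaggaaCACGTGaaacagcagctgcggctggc
Rab3gap2: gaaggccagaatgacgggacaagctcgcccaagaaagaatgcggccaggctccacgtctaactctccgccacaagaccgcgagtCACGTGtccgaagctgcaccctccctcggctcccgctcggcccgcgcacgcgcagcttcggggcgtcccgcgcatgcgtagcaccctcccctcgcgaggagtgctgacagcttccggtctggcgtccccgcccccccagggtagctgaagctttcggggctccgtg
Pofut2 (protein O-fucosyltransferase, chr10:77259050-77259299, plus strand) and Ddb1 (an adaptor of a ubiquitin ligase, chr19:10605347-10605596, plus strand) had the highest-ranked added peaks over a promoter window, at I-BET ranks 850 and 1090. Neither window holds the E-box.
Pofut2: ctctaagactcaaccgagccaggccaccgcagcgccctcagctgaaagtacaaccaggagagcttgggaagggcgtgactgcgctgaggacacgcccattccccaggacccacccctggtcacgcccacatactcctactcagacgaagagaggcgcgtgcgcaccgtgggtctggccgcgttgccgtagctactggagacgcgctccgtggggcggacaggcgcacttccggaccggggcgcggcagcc
Ddb1: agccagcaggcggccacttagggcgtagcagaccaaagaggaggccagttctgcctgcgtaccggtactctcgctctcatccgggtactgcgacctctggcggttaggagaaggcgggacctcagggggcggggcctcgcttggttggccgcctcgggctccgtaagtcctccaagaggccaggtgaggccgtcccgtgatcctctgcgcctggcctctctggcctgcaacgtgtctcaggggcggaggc
In these examples the E-box begins 147 bases before the start of Atp5l, 44 before that of Exosc5, 26 before that of Nceh1 and 166 before that of Rab3gap2.

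Nearly all MAX peaks of untreated cells were listed again with I-BET, and the I-BET list held several times as many further peaks. Of the 8839 untreated peaks, 8615 overlapped an I-BET peak (97.5%, 97.1 to 97.8), and 224 did not (2.53%). When each peak of a pair had to cover 50% of the other, 50.9% were kept, since a pair with a width ratio over 2 cannot meet that rule. Of the 36785 I-BET peaks, 8337 overlapped an untreated peak and 28448 did not (77.3% added, 76.9 to 77.8). The covered length was 4.39 Mb in the untreated list and 23.0 Mb in the I-BET list. Each listed row joins peaks from 3 call sets, whose highest peak number was 10410 to 12541 in untreated cells and 38167 to 43064 with I-BET. The lists thus differed in length by more than these call sets differed among themselves, and whether the call sets are separate cultures is not stated. Library depth and treatment cannot be told apart with 1 library a side.

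Among I-BET peaks the kept share was lower at each step down the ranking, apart from the steps at ranks 24001 to 26000 and after 36000. Of the 2000 highest-scoring I-BET peaks, 97.7% overlapped an untreated peak (96.9 to 98.3), against 64.6% at ranks 4001 to 6000, 34.0% at ranks 8001 to 10000 and 0.750% at ranks 34001 to 36000. The share at gene starts went from 76.5% to 50.1% and 15.4% over the first, the fifth and the last of these full steps. Added peaks thus lay mostly in the lower part of the list, with a median rank of 22268.5 against 4798 for kept I-BET peaks. At equal numbers, 6497 of the 8839 untreated peaks overlapped a top I-BET peak (73.5%, 72.6 to 74.4; 36.0% with the 50% rule), and 2652 of the top I-BET peaks were added.

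**Figure D1:**
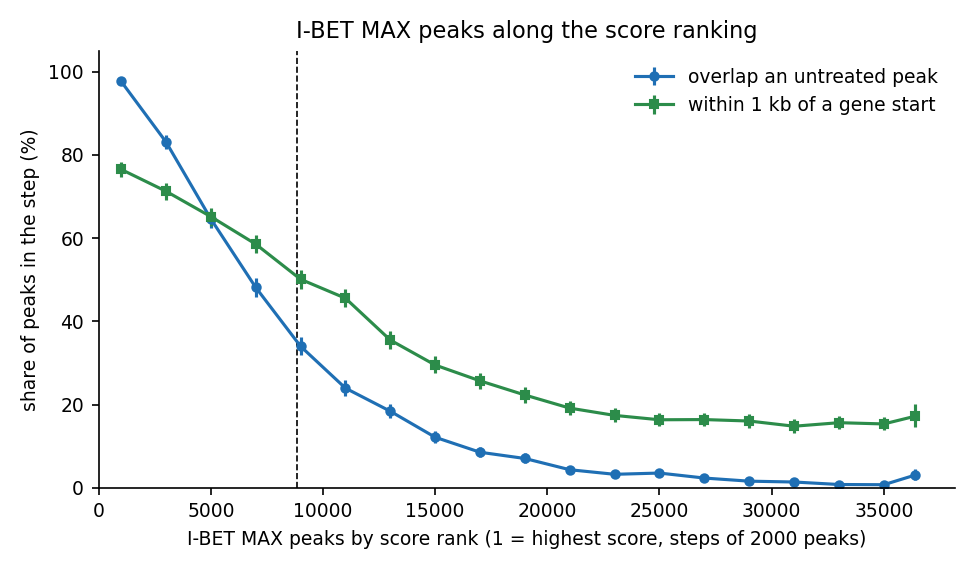
I-BET MAX peaks in order of score rank, in steps of 2000 peaks (the last step holds 785). The vertical axis gives the percent of each step that overlaps an untreated peak (circles) or lies within 1 kb of a gene start (squares), bars are exact 95% intervals, and the dashed line marks rank 8839. Overlap starts at 97.7% and drops under 5% by rank 20001 to 22000, while the gene start share levels off near 15%.

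Read from the untreated side, kept peaks were frequent at every rank, while a place among the top I-BET peaks depended on rank. Of untreated ranks 1 to 1000, 997 were kept and 948 overlapped a top I-BET peak, and of the last 839 peaks 796 were kept and 425 overlapped a top peak. The highest I-BET peaks with a gene start were all among the leading untreated peaks. Ipo13 (an importin) had I-BET rank 1 and untreated rank 52, Gorab (a Golgi protein) ranks 2 and 10, and Golga5 (a golgin) ranks 3 and 56. Ankle2 had ranks 4 and 53, and the shared start of Apex1 (a DNA repair endonuclease) and Osgep (tRNA modification) had ranks 5 and 30. Ncl (nucleolin) had ranks 9 and 43, and Rps27a (a ribosomal protein fused to ubiquitin) ranks 11 and 15.

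A small set of strong sites went against this order. In the I-BET list 19 peaks had a score under 30, of which 17 had a score of 0, and the next lowest score was 40.3. How these scores arose before deposit was not tested, so the last ranks of these peaks cannot be read as weak binding, nor can a drop at equal numbers of their genes. These 19 peaks were 811 to 2199 bp wide (median 1081), against a median of 304 bp for the 100 lowest-scoring peaks apart from them, and they overlapped untreated peaks of ranks 2 to 116. They lay at Slc35b1 (a nucleotide sugar transporter, untreated rank 2), Mapkapk5 (a kinase, rank 3), Lrr1 (rank 9), Nsun2 and Srd5a1 (an RNA methyltransferase and a steroid reductase, rank 11), Zfp335 (rank 16), Hspa9 (mitochondrial HSP70, rank 24), Eftud2 (a spliceosome GTPase, rank 26), Polr2e (an RNA polymerase subunit, rank 47) and Rpl21 (rank 116), among others. By score they rank last, so 18 of the 100 leading untreated peaks have a match outside the top peaks because of such a score. Of the 100, 1 more matched below the top peaks, Vdac2 (rank 19), whose I-BET peak of 1851 bp has a score of 108 and rank 25371. With the 19 peaks ranked first the share at equal numbers was 73.6%, so they move single genes and not the total.

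Kept peaks were wider with I-BET, and most of all at gene starts. The median width was 443 bp in the untreated list, 919 bp for kept I-BET peaks and 407 bp for added ones. Over the 8615 matched pairs the width ratio of I-BET to untreated had a median of 1.89 (quartiles 1.39 and 2.69; interval of the median 1.87 to 1.92), and 92.2% of pairs were wider with I-BET. The edges lay further out by a median of 166 bp on the side of lower coordinates and 169 bp on the other, and 76.4% of kept untreated peaks lay wholly inside an I-BET peak. The median ratio was 2.17 at gene starts (4882 pairs), 1.58 inside genes (2047) and 1.48 between genes (1686). In pairs that matched 1 to 1 these ratios were 2.08, 1.55 and 1.45, so joined peaks do not set the order. The ratio was 1.77 in the 25% of untreated peaks with the highest scores and 2.05 in the lowest 25%.

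**Figure D2:**
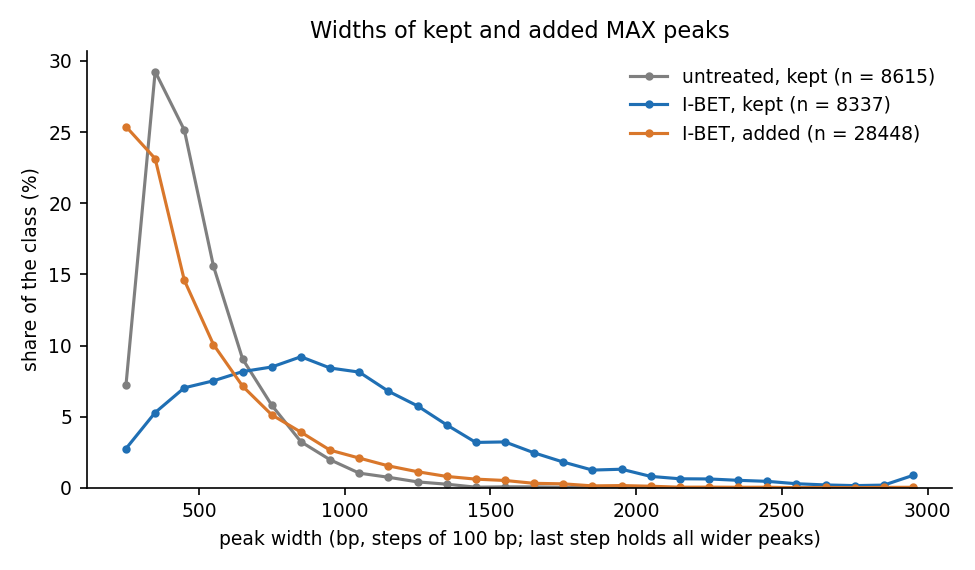
Width of MAX peaks in steps of 100 bp (horizontal axis, bp) against the percent of each class in the step (vertical axis). Untreated kept peaks (n = 8615) and added I-BET peaks (n = 28448) lie mostly under 600 bp, while kept I-BET peaks (n = 8337) spread around a median of 919 bp.

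Some kept regions were several times as wide because the I-BET peak spans neighbouring untreated peaks: 305 I-BET peaks joined 2 untreated peaks and 15 joined 3. Among the 1000 leading untreated peaks, Brd2, which encodes one of the BET proteins that the inhibitor targets, went from 755 bp (chr17:34119036-34119790) to 5051 bp (chr17:34118019-34123069), a ratio of 6.69, in a peak that spans 3 untreated peaks. Junb (an AP-1 factor) went from 598 to 3609 bp, Eno3 (muscle enolase) from 564 to 3958 bp, Tgif1 (a homeobox repressor) from 547 to 3579 bp and Klf16 (a zinc finger factor) from 524 to 3108 bp. The largest ratio among these 1000, 8.73, was at chr11:69408287-69412312, away from the start of a protein-coding gene, where a single untreated peak of 461 bp lies in an I-BET peak of 4026 bp.

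Added peaks were at gene starts less often than kept ones, and the gap was smaller among top peaks. At gene starts were 55.3% of untreated peaks (54.3 to 56.4), 56.8% of kept I-BET peaks (55.7 to 57.8) and 26.8% of added peaks (26.3 to 27.3). Added peaks were instead inside genes away from a start in 41.9% and between genes in 31.3%. Among top I-BET peaks, 68.0% of kept and 62.6% of added ones were at gene starts. Most added peaks lay over 10 kb from any untreated peak, and the median gap to the nearest one was 24.7 kb. Of all added peaks 7.24% lay within 1 kb of an untreated peak and 30.4% within 10 kb, and 5129 were over 100 kb away. A part of the top added peaks was also listed under RANKL: 52.5% overlapped a RANKL MAX peak, against 11.5% of all added peaks and 83.5% of kept I-BET peaks. The RANKL with I-BET list overlapped 22.6%, 3.44% and 60.4% of the same classes. Neither list overlapped 87.3% of all added peaks, and these lists are shorter than the I-BET list.

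**Figure D3:**
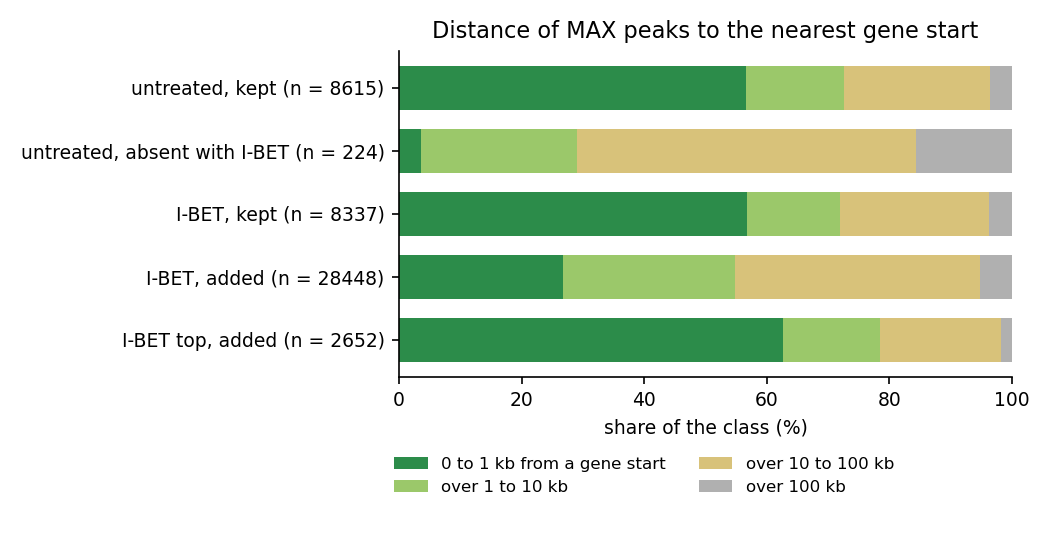
Share of peaks (horizontal axis, percent of the class) by distance from the peak's edge to the nearest gene start, for kept and absent untreated peaks and for kept, added and top added I-BET peaks, with the number of peaks of each class. The nearest class holds 56.7% of kept untreated, 3.57% of absent, 26.8% of added and 62.6% of top added peaks.

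The highest-ranked added peaks at gene starts were at genes of varied function. Among the 15 highest were those at Pofut2 (I-BET rank 850), Ddb1 with Tkfc (1090), Zfp593 (1097), Adsl (a purine synthesis enzyme, 1160), Nceh1 (1275) and Sec63 (protein translocation, 1410). Further down were Atrn (1468), Glod4 with Mrm3 (1514), Ap2s1 (a clathrin adaptor subunit, 1546), Polr2a (the largest RNA polymerase II subunit, 1571), Pycrl (proline synthesis, 1617), Gsn (gelsolin, an actin-severing protein, 1628), Naa15 (1641) and Cpne8 (1685). Their gaps to the nearest untreated peak ran from 7.64 kb at Pycrl to 1023 kb at Cpne8. All of the 15 highest overlapped a RANKL MAX peak, and 9 overlapped a RANKL with I-BET peak.

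The 224 absent peaks were few, mostly low in rank and away from gene starts. Their median width was 342 bp and their median untreated rank 6261.5 of 8839. Of them 8 were at a gene start (3.57%, 1.55 to 6.92), 50.4% were inside genes and 46.0% between genes, and 49 had an I-BET peak within 1 kb. Absent peaks overlapped a RANKL MAX peak in 39.7% (33.3 to 46.5), against 83.1% of kept untreated peaks. The highest-ranked absent peak, chr16:64756313-64756700 (rank 755), lay between genes with no I-BET peak within 13.7 kb, and a RANKL peak overlapped it. The 8 at gene starts lay at Zfp52, Msr1, Asxl2, Uck1, Kxd1, Derl1, Oxr1 and Arhgap39, at untreated ranks 3540 to 8070. At 6 of these the nearest I-BET peak was 21 to 379 bp away. It was 5292 bp away at Msr1 and 71143 bp away at Oxr1 (an oxidation resistance protein), which has an I-BET peak at another start.

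By the 1 kb rule 2 protein-coding genes had an untreated peak at a start and no I-BET peak there, Msr1 and Ctsk. Msr1 encodes a macrophage scavenger receptor. Its untreated peaks were chr8:39642956-39643459 (rank 5002) and chr8:39644522-39644928 (rank 4908), and both were absent with I-BET. The first overlapped a RANKL peak (chr8:39643024-39643414) and the second a RANKL with I-BET peak (chr8:39644606-39644880). Ctsk encodes cathepsin K, the collagen-degrading protease of osteoclasts. There the untreated peak chr3:95497682-95498222 (rank 3141), 988 bp from the start, overlapped the I-BET peak chr3:95497375-95497957 (rank 20793), which lies 1253 bp from the start. The Ctsk peak is therefore a kept one, and the edge of the window alone took the gene out of the count.

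By genes, the share with a MAX peak at a start went from 24% of 21887 protein-coding genes (5258 genes) to 50.8% (11112 genes), with 5856 genes added (26.8% of all genes and 35.2% of those without an untreated peak) and 2 dropped (0.00914%). Neither list had a peak at 49.2% of genes. Of the genes added, 5823 had an added peak at the start, and 33 were reached only by a kept peak that had become wider. At equal numbers of peaks 30% of genes (6556) had a top peak, with 1815 genes added (8.29%, or 10.9% of those without an untreated peak), 517 dropped (2.36%, or 9.83% of those with one) and 21.7% of genes present in both. Genes dropped at equal numbers were mostly of low rank: their untreated peaks had a median rank of 6786, against 3848.5 at genes present in both, and their matched I-BET peaks a median rank of 10997, below the top 8839. Some had higher untreated ranks with ordinary I-BET scores, such as Mapk14 (a stress kinase, ranks 1603 and 9451) and Nop16 (ranks 1757 and 9726), and others are the low-scoring sites described above. With the 19 low-scoring peaks ranked first 499 genes were dropped.

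Gene lists chosen with earlier results of these data known were counted in the same way. Over 26 lists of functions with 889 entries, 518 had an untreated peak at a start (58.3%), 600 a top I-BET peak (67.5%) and 834 any I-BET peak (93.8%). The whole table stood at 24%, 30% and 50.8%. With top peaks the count was higher than in untreated cells in 21 lists, equal in 4 and lower in 1. The 7 further lists hold markers of other cell types and of germ cells. Of their 184 entries 5 had an untreated peak, 4 a top peak and 21 any I-BET peak (11.4%). No neuron, lymphocyte, fibroblast or neutrophil marker on these lists had an untreated or a top peak. Markers of the line itself were bound in part. The regulators Spi1, Cebpa and Csf1r had peaks at their starts in both lists, and Cd68 had ranks 5390 and 12980. Of the 42 macrophage surface receptors 6 had an untreated peak at a start and 15 had no I-BET peak there. A MAX peak marks a bound promoter and not the amount of RNA.

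**Figure D4:**
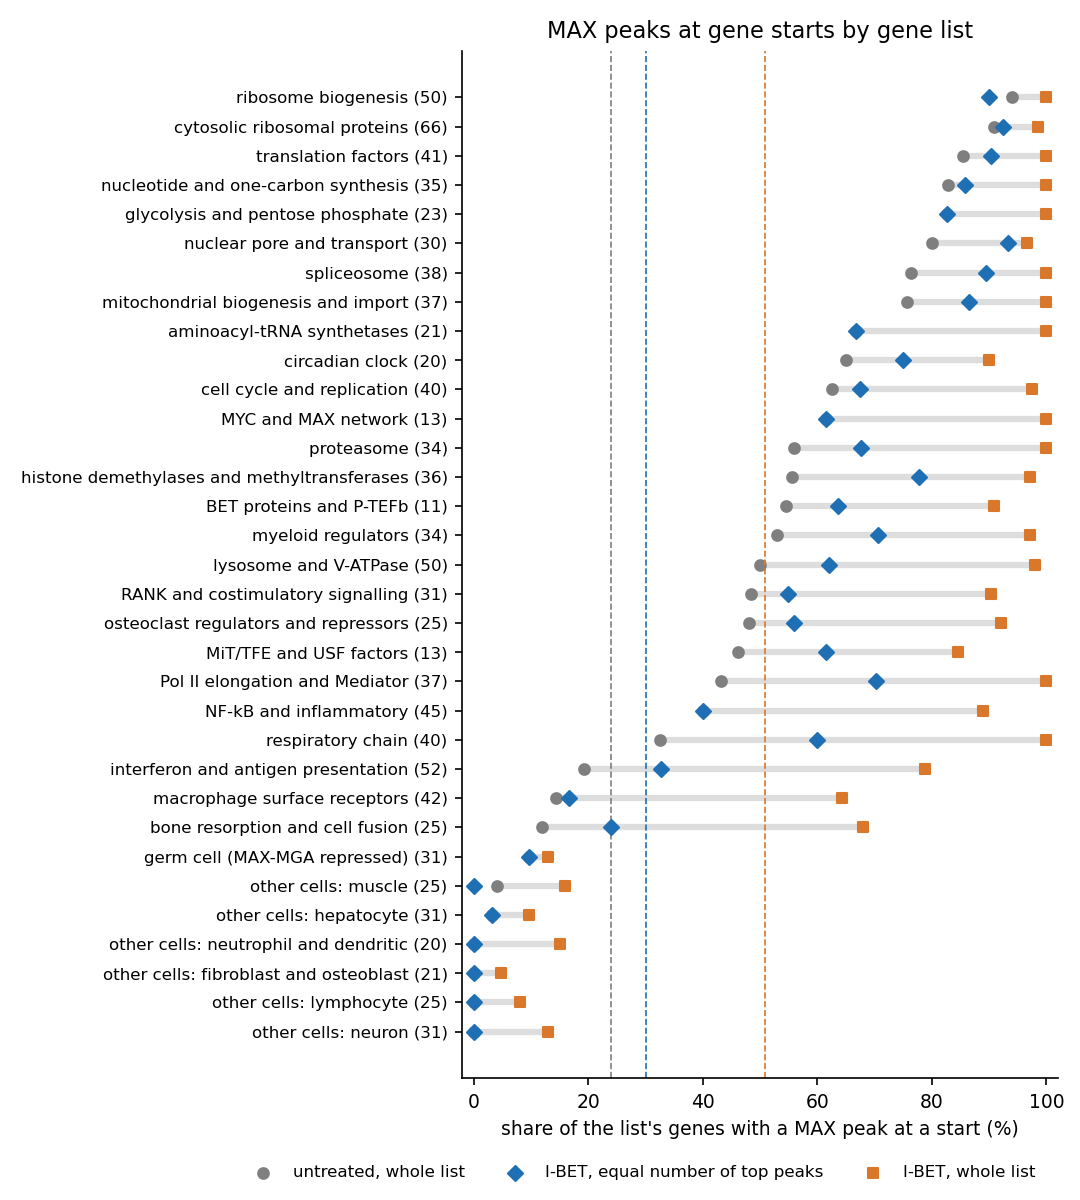
Percent of the genes of each of the 33 lists (number of genes in parentheses) with a MAX peak at a start in untreated cells (circles), among the 8839 top I-BET peaks (diamonds) and in the whole I-BET list (squares). Dashed lines give the same 3 shares over all protein-coding genes, 24%, 30% and 50.8%. Ribosome biogenesis starts at 94% and ends at 100%, bone resorption and cell fusion starts at 12% and ends at 68%, and the lists of other cells end between 4.76% and 16%.

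Of the growth and biosynthesis lists, whose genes are well known MYC and MAX targets, some were near full in untreated cells and others were not. Ribosome biogenesis had 47 of 50 genes with an untreated peak, 45 with a top peak and 50 with any I-BET peak. Cytosolic ribosomal proteins had 60, 61 and 65 of 66, with Rpl28, Rps18, Rps27 and Rps4x added among top peaks. Those dropped were Rpl21, with its score of 0, Rpl38 (ranks 1830 and 9089) and Rps9 (ranks 7060 and 13149). Translation factors had 35, 37 and 41 of 41 (Eif3d, I-BET rank 2831, was added). Nucleotide and one-carbon synthesis had 29, 30 and 35 of 35, with Adsl among those added and Tyms (thymidylate synthase, ranks 4760 and 13363) dropped at equal numbers. Aminoacyl-tRNA synthetases had 14, 14 and 21 of 21, glycolysis with the pentose phosphate pathway had 19, 19 and 23 of 23, and cell cycle and replication had 25, 27 and 39 of 40.

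Other function lists held more genes at equal numbers than in untreated cells, and so did the table of all protein-coding genes. Of its 21887 genes 5258 (24%) had an untreated peak, 6556 (30%) a top peak and 11112 (50.8%) any I-BET peak. The respiratory chain went from 13 to 24 and then 40 of 40 genes, with Cox7a2 (a cytochrome oxidase subunit, I-BET rank 2904), Atp5h (an ATP synthase subunit, rank 5480) and Sdha (complex II, rank 6970) among those added. Pol II elongation and Mediator went from 16 to 26 and 37 of 37, with Med6 (rank 3183), Med13 (rank 3838) and Ctr9 (a PAF complex subunit, rank 4006). Histone demethylases and methyltransferases went from 20 to 28 and 35 of 36, with Kdm2b (rank 5717) and Ezh1 (rank 5792). Mitochondrial biogenesis and import went from 28 to 32 and 37 of 37, with Tfb1m (rank 3529) and Tfam (rank 3989), factors for transcription of mitochondrial DNA. The spliceosome went from 29 to 34 and 38 of 38, the proteasome from 19 to 23 and 34 of 34, and the lysosome with the V-ATPase from 25 to 31 and 49 of 50. In proportion to the untreated count, the mitochondrial, spliceosome, proteasome and lysosome lists rose at equal numbers no more than all genes did. The respiratory chain, Pol II and histone enzyme lists rose more. That measure leaves less room to lists with more genes bound in untreated cells. Of members without an untreated peak, 66.7% (mitochondrial), 77.8% (spliceosome), 53.3% (proteasome) and 36% (lysosome) had a top peak. In the respiratory chain, Pol II and histone enzyme lists these shares were 44.4%, 52.4% and 50%. Over all protein-coding genes without an untreated peak the share was 10.9%.

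Lists of macrophage and osteoclast genes varied among themselves. Myeloid regulators had 18, 24 and 33 of 34 genes with a peak, with Egr3 (rank 5516) and Irf1 (rank 5857) among those added at equal numbers. The I-BET peak at Egr3, 916 bp from the start, is a kept one whose untreated match lay outside the 1 kb window. Over all protein-coding genes the shares with a peak were 24% in untreated cells, 30% at equal numbers and 50.8% in the whole I-BET list. Of genes without an untreated peak, 10.9% were added at equal numbers and 35.2% in the whole list. Of all 5856 genes added, 1815 had a top peak. The NF-kB and inflammatory list had 18 of 45 genes in untreated cells, 18 at equal numbers and 40 in the whole I-BET list. At equal numbers Ptgs2 (cyclooxygenase 2, rank 4553), Map3k8 (a kinase, rank 4667), Birc3 (rank 5907), Nfkb1 (rank 7764), Tnfaip2 and Csf1 entered, while Nfkbib, Nlrp3, Myd88, Relb and the shared start of Ccl3 and Ccl4 left. Interferon and antigen presentation went from 10 to 17 and 41 of 52, with Bst2 (tetherin, rank 3721), Cmpk2 (rank 3902) and H2-D1 (a class I molecule, rank 5117). Macrophage surface receptors had 6, 7 and 27 of 42, with Tlr1 and Tlr2 added among top peaks, and Adgre1 (the F4/80 antigen), Axl and Ccr1 without a listed peak at the start in either list. Bone resorption and cell fusion had 3, 6 and 17 of 25. The added ones there included Ostm1 (rank 4440) and Clcn7 (rank 4886), which form the chloride antiporter of the resorbing membrane, and Tcirg1 (the osteoclast proton pump subunit, rank 5921). Acp5 (tartrate-resistant phosphatase, rank 26822) and the cell fusion genes Dcstamp (rank 26582) and Ocstamp (rank 23714) had low-ranked added peaks of 375 to 436 bp, and Calcr (calcitonin receptor) had none.

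The MYC and MAX network had 8 of 13 genes in untreated cells, the same count at equal numbers and 13 in the whole I-BET list. The start of Max itself had untreated rank 712 and I-BET rank 1742, with widths of 792 and 1404 bp. Among its repressor partners Mnt had ranks 1058 and 1164 (1201 and 3593 bp), Mxi1 2036 and 712 (617 and 1033 bp), Mga 3474 and 1894 (758 and 932 bp) and Mxd1 7794 and 3678 (358 and 975 bp). Myc had no untreated peak at its start or within 10 kb of the gene, and an added peak of 799 bp at I-BET rank 24288 (chr15:61985277-61986075), which neither RANKL list holds. The start of Mlx, a MAX-like factor, was added at rank 10123, and Mycn and Mycl at ranks 21621 and 21858. The network genes bound in untreated cells thus stayed listed, and those of the MYC family entered low in the list.

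Genes of the inhibitor's targets and of the elongation kinase P-TEFb had 6, 7 and 10 of 11 members with peaks. Brd2 had ranks 764 and 1639, and Brd3 had 3665 and 10542 with widths of 689 and 1911 bp, so it left the top set. Hexim1 (an inhibitor of P-TEFb, rank 8557) and Ccnt1 (cyclin T1, rank 6504) were added among top peaks. Cdk9 (the kinase) was added at rank 10847, and Brdt had no peak at its start in either list. Of the lineage regulators, Spi1 (PU.1) had ranks 691 and 1231 with widths of 407 and 743 bp, and Cebpa had 711 and 665 with widths of 717 and 3480 bp. Cebpb had ranks 3368 and 6571 and Csf1r (the M-CSF receptor) 6705 and 6881. Irf8, a repressor of osteoclast formation, was added at rank 7120 with 1804 bp. Tnfrsf11a (RANK, rank 9468), Fos (rank 10857), Nfatc1 (a master regulator of osteoclast formation, rank 11947) and Jun (rank 15056, 4091 bp wide) were added below the top peaks.

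The E-box was less frequent in promoter windows with added peaks than in those with kept peaks. The windows run from 250 bases before to 50 after a start, and 21263 windows of 17492 genes were searched for CACGTG, which reads the same on both strands. It was in 17.4% of 4472 windows with a kept peak and a top I-BET peak (16.3 to 18.5), in 8.66% of 485 with a kept peak below the top, in 7.89% of 1636 with a top added peak (6.63 to 9.30) and in 5.46% of 3574 with a lower added peak (4.73 to 6.25). Windows without a peak held it in 4.72% of 11095 cases (4.34 to 5.13), and all windows in 7.84%. Along the untreated ranking the share went from 30.3% of windows with a peak of ranks 1 to 1000 to 6.65% at ranks 8001 to 8839. It also fell along the I-BET ranking. In equal steps from the highest I-BET ranks down it was 22.7% of 2451 windows, then 10.3% of 2029 and 8.53% of 1700. Top kept I-BET peaks had a median rank of 3321 and top added ones 6522.5. Whether kept and added windows differ at equal I-BET rank was not tested. A match is a description of the letters in the window and not of a site.

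These classes also differ in base composition, so the share was read within classes of CpG number, though not of rank. The median window held 25 CpG in kept top windows, 23 in top added, 18 in lower added and 4 in windows without a peak. With 20 to 29 CpG the E-box was in 17.9% of kept top windows (16.1 to 19.8), 6.92% of top added (5.11 to 9.12), 5.46% of lower added (4.15 to 7.04) and 10.8% of windows without a peak (8.75 to 13.2). With 10 to 19 CpG the shares were 18.6%, 8.21%, 5.79% and 8.45%. In windows of 10 CpG or more, lower added peaks thus had the E-box less often than windows without any MAX peak, with intervals that do not overlap at 20 to 29 CpG and at 30 or more. In windows of 0 to 9 CpG, by contrast, lower added ones had it in 5.52% and windows without a peak in 3.05%.

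**Figure D5:**
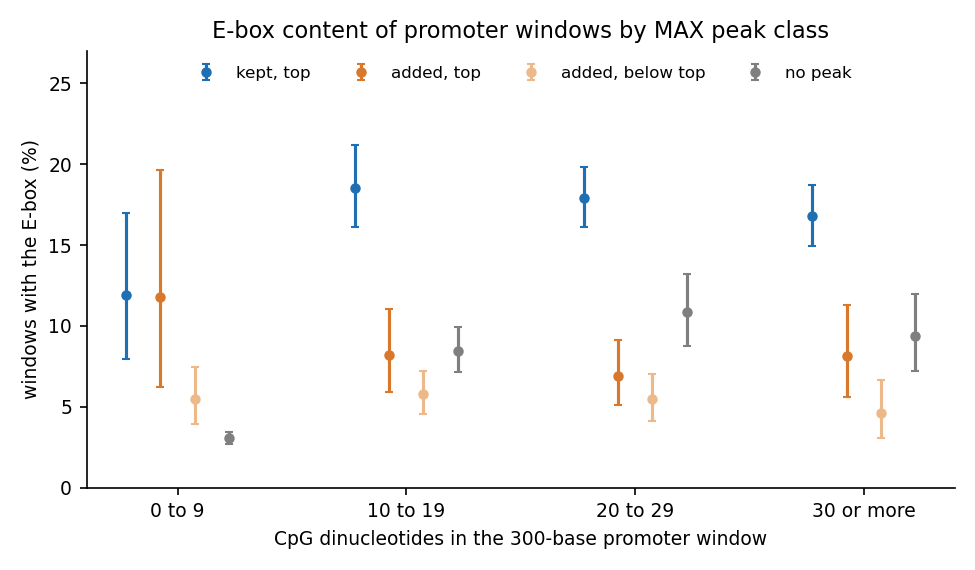
Percent of promoter windows that hold the E-box (vertical axis) by number of CpG dinucleotides in the window (horizontal axis), for windows with a kept top, an added top, an added lower or no MAX peak. Points are shares and bars exact 95% intervals. Kept windows lie at 16.8% to 18.6% from 10 CpG upwards, and added windows lie between 4.64% and 8.21% there. With 0 to 9 CpG kept top windows lie at 11.9% and added top windows at 11.8%.

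Other motifs did not separate kept top from top added windows to the same extent. Their shares were not read within classes of CpG number. The GC box CCGCCC, bound by SP and KLF factors (other strand GGGCGG), was in 72.6% of kept top, 69.3% of top added and 25.4% of windows without a peak. The ETS motif CCGGAAGT (other strand ACTTCCGG) was in 10.6%, 11.1% and 0.838%. The E-box variant CACGCG (other strand CGCGTG), which shares letters with CACGTG but does not contain it, was in 26.6%, 19.9% and 5.13%. The palindrome CAGCTG, an E-box of other helix-loop-helix proteins, was in 12.1%, 14.7% and 17.2%. Lower added windows held CCGCCC in 64.4%, CCGGAAGT in 8.51%, CACGCG in 11.5% and CAGCTG in 15.2%. The position of the E-box in the peak also differed between the lists. In 677 windows a single CACGTG lay inside both an untreated and an I-BET peak. Its median distance from the centre was 60.5 bp in the untreated peak and 157 bp in the I-BET peak. The median widths of these peaks were 513 and 1059 bp. For CAGCTG, over 423 such windows, the median distances were 108.5 and 186.5 bp and the median widths 482 and 1105 bp. The greater distance with I-BET was thus not particular to CACGTG.

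MYC peaks of untreated cells, which are far fewer, nearly all lay on MAX peaks of both lists. Of 312 MYC peaks in untreated cells 297 overlapped an untreated MAX peak (95.2%) and 310 an I-BET MAX peak (99.4%), so 13 MYC sites without an untreated MAX peak had one in the I-BET list. Of the 136 MYC peaks with I-BET, 51 overlapped an I-BET MAX peak (37.5%, 29.4 to 46.2). Added MAX peaks overlapped a MYC peak in 13 cases in untreated cells and in 13 with I-BET, of 28448.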

How the data were processed

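MAX was mapped by ChIP-seq in RAW264.7 cells, crosslinked with 1% formaldehyde for 15 min and sequenced as single-end reads of 50 bp, per the labels' protocols. FastQC, Bowtie2 2.3.4.1, MACS2 2.1.1.20160309 and the mm10 (GRCm38) build are named in the submitters' processing notes. The sources used here do not give thresholds, use of input or duplicate handling. The authors deposited, per peak, a position, the names of the peaks joined from 3 call sets and a score, which equals the mean over joined peaks. Groups were taken from sample titles, with 1 library each.

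Starts were raised by 1 to count from 1. Overlap means at least 1 bp. Width ratios use the I-BET peak with the longest overlap. Transcription starts and promoter windows came from RefSeq tables (GRCm38.p6), with both gene ends for the 4395 genes without a listed start. Named genes are those at the 10 highest I-BET peaks and the 15 highest added peaks with a gene start, absent peaks and dropped genes, the 10 largest width ratios among the 1000 leading untreated peaks, up to 6 added and 3 unbound members per list in alphabetical order, and 22 regulators. Cd68, Tyms, Rpl38, Mapk14 and other genes that left at equal numbers, Vdac2 and the low-scoring peaks were named after their values were seen. The members and the 33 gene lists (1073 entries, all matched) were chosen with earlier results of these data known. The 4 input libraries were not used, and some genes that the rule names are not reported here. Overlap code was tested on simulated data against bedtools 2.31.1. Software was pandas 2.3.3, numpy 2.4.6, matplotlib 3.10.9 and scipy 1.17.1 under Python 3.11.15. Alternatives covered overlap, rank, window, gene ends and narrow peaks.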

Additional observations from a re-analysis of the deposited data

How the results depend on the processing

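Of 42 alternatives, 22 gave a share inside the interval of the reported one or a count within 1.5 times of it, and 20 did not. The limit of 100 bp on peak width removed no peak, since the narrowest was 203 bp, so its results could not differ. No paired analysis was possible because each group has 1 library and no test was run. Requiring a reciprocal overlap of 50% lowered the kept share to 50.9%, the kept share at equal numbers to 36.0%, and raised the added share to 87.8%. A pair whose width ratio is over 2 cannot meet that rule, and 45.7% of matched pairs are of this kind. With the centre of a peak inside the other, 96.7% were kept and 82.1% added. With the upper scoring part of both lists 95.9% were kept, and with the upper part of the I-BET list 57.4% were added. Counting peaks within 1 kb as matched gave 71.7% added. At equal numbers the kept share was 59.4% with the widest peaks and 65.9% with 4000 peaks a side. The width ratio was 1.81 over 1 to 1 pairs and 1.81 over the upper scoring part of the untreated list. The share of kept I-BET peaks at gene starts was 55.0% at 0.5 kb, 61.1% at 2.5 kb, 55.2% by peak centre and 54.3% with both ends of every gene. For added peaks it was 22.0% at 0.5 kb, 34.8% at 2.5 kb and 24.7% by centre. Added genes stayed between 5789 and 6029, and added genes at equal numbers between 1257 and 2713. Dropped genes at equal numbers were 928 with the widest peaks and 471 to 566 otherwise. Alternatives using the 19 low-scoring peaks, peak centres for gene counts or both ends of every gene were chosen after the data were seen. The lists give no read counts, so depth sets an unknown limit on which peaks could be called, and a peak that is absent from a list was not called there, which does not show that MAX was missing.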

Other observations

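By chromosome the lists differed most in ratio on X. Chromosome X held 74 untreated and 544 I-BET peaks, a ratio of 7.35, with 87.5% of its I-BET peaks added. On the autosomes the ratio ran from 3.66 on chromosome 16 to 4.47 on chromosome 2, and the added share from 74.4% to 78.8%. Chromosome Y held 3 and 19 peaks. Genes on X with an I-BET peak and no untreated peak at the start, named after these counts were seen, included the ribosomal protein genes Rps4x (I-BET rank 6348) and Rpl10 (13048), Pgk1 (phosphoglycerate kinase, 6067), G6pdx (the first enzyme of the pentose phosphate pathway, 20243), Kdm6a (a histone demethylase, 6951) and Ndufa1 (complex I, 8519).

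Added peaks were dense at some loci, and the few named here were picked after their values were seen, out of genes of varied function. Counted over the gene with 10 kb on either side, the median gene had 0 untreated peaks and 1 I-BET peak, and 279 genes had 10 or more added peaks. The neighbouring lysozyme genes Lyz1 and Lyz2, whose counts share peaks, had 16 and 15 added peaks. Socs3, a brake on cytokine signalling, had 12 added and 2 untreated peaks, Laptm5 (a lysosomal membrane protein of blood cells) 12 and 1, and Cd9 (a tetraspanin) 15 and 0. Of long genes, Zmiz1 (a PIAS-like coregulator) had 34 added peaks over 209 kb, Septin9 32 over 163 kb and Runx1 (a blood cell transcription factor) 26 over 225 kb.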
